A study of Mus musculus with 6 samples.

Results

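Tgfbi and 9 genes of transforming growth factor beta (TGF-beta) signalling, Tgfb1, Tgfbr1, Tgfbr2, Smad2, Smad3, Smad7, Skil, Ltbp1 and Thbs1, were followed in mouse bone marrow mononuclear cells (BMMNCs) grown on 2 scaffold materials. The 10 genes were picked by symbol from 51912 gene records, each symbol matching 1 record. Tgfbi was chosen because it was lower on hHVS than on PCL in these libraries, and the others because they belong to the pathway, with results of these data known. The values of hHVS against PCL are therefore given for the 10 genes as a description, with no p-value. Where it is said whether one of them was past a threshold, that too is a description. All 10 passed the filter on low values.

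BMMNCs are the marrow fraction of leukocytes, progenitors and some stromal cells. Cells of wild-type mice (the genotype label reads WIDETYPE) were kept for 10 days on hHVS (3 libraries) or on PCL (3 libraries). The labels do not spell out hHVS. PCL commonly stands for polycaprolactone, a polyester made synthetically. No group without a scaffold was analysed here, and the labels give neither the age nor the strain of the mice. Nothing in them ties replicates to separate cultures or animals, and any p-value given here reflects the variation among 6 libraries, which could be technical.

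TGF-beta is secreted as a latent complex, bound through its propeptide to latency proteins such as Ltbp1, and is released by integrins, proteases or the matrix protein Thbs1. The free ligand binds Tgfbr2, which phosphorylates Tgfbr1. Tgfbr1 in turn phosphorylates Smad2 and Smad3, which enter the nucleus with Smad4 and switch on targets, among them Tgfbi and the feedback inhibitors Smad7 and Skil. Macrophages make and sense TGF-beta, and Tgfbi encodes a secreted matrix protein with FAS1 domains that binds integrins and that monocytes and macrophages also express.

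Promoter windows, 250 bases before to 50 bases after a RefSeq transcript start on GRCm38.p6, were at hand for 6 of the 10 genes. The windows of Tgfbi, the gene with the clearest group difference, and of both TGF-beta receptor genes are shown because these are the members whose levels moved most with the scaffold relative to their spread. Each is written 5′ to 3′ on the gene's own strand, with capitals for CAGACA, the core of a Smad-binding CAGA box.
Tgfbi, chr13:56609336-56609635, plus strand: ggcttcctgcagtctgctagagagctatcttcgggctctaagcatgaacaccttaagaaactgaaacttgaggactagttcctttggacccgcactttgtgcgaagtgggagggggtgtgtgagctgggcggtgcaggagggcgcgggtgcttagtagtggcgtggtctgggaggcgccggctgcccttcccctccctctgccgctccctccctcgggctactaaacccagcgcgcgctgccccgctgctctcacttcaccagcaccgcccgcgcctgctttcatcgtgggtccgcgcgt
Tgfbr1, first start, chr4:47352972-47353271, plus strand: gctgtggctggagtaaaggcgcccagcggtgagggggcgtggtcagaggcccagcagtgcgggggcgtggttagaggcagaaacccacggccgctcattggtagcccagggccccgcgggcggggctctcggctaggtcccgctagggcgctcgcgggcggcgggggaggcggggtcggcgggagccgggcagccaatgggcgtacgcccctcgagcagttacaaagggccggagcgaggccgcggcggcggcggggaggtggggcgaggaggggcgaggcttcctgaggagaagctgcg
Tgfbr1, second start, chr4:47385966-47386265, plus strand: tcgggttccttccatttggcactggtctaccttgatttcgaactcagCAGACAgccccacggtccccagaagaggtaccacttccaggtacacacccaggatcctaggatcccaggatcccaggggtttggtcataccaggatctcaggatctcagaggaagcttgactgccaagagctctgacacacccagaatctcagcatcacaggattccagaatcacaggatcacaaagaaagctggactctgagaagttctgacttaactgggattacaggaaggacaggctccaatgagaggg
Tgfbr2, chr9:116175314-116175613, minus strand: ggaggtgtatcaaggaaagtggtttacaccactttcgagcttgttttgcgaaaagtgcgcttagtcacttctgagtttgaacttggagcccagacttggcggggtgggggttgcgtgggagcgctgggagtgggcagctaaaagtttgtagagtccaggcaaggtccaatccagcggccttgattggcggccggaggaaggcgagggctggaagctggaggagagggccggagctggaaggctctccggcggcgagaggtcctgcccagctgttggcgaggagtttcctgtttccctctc

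A set of 3 motifs was searched on both strands: CAGACA, the palindromic Smad element GTCTAGAC, and the AP-1 element TGANTCA, where N is any base. The Tgfbi window held none of them. CAGACA began 203 bases before the second start of Tgfbr1 and, on the opposite strand, 149 and 98 bases before the second start of Ltbp1. It was absent from the other windows of the 6 genes. Among 32851 mouse windows of the same length, 21.0% held CAGACA, 0.213% held GTCTAGAC and 7.81% held TGANTCA. The Tgfbi window was 63.3% G or C, against a median of 52.7% over all windows. A match or its absence describes these letters only.

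In units of 1000000 estimated counts, library totals were 75.1 to 83.6 on hHVS and 72.1 to 74.1 on PCL, at about 4 units per sequenced fragment. A floor of 3 fragments corresponded to 0.146 to 0.167 CPM (counts per 1000000), depending on the library, for counting error only. In a principal component analysis the first component separated the scaffolds, while the second set hHVS replicate 2 (-32.1) and PCL replicate 3 (-53.6) apart from the other libraries (10.4 to 31.8). Macrophage genes were abundant. Their 7 markers (Csf1r, Cd68, Adgre1, Mertk, Fcgr1, Lyz2 and Ptprc) summed to between 18946 and 20264 CPM on hHVS and between 14535 and 16899.8 CPM on PCL, and 0 of the 7 passed edgeR's quasi-likelihood test (3 at an unadjusted p under 0.05, against 13.1% of all genes). Lyz2 made most of that sum, and the other 6 markers summed to 6417 to 6668 CPM on hHVS and 6161 to 6585 CPM on PCL, which overlap. All levels below in CPM are adjusted with TMM factors. In bulk RNA, fewer cells of a type and less RNA per cell cannot be told apart.

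Tgfbi lies at chr13:56609523-56639562 on the plus strand of GRCm38. It was at 132, 123 and 149 CPM in hHVS replicates 1, 2 and 3, against 252, 255 and 239 CPM in PCL replicates 1, 2 and 3. The highest hHVS library was far below the lowest PCL library, and each group was tight. The means were 134 ± 13.6 CPM on hHVS and 248.5 ± 8.85 CPM on PCL (SD, n = 3 each), a ratio of 0.541 and a log2 fold change of -0.89 ± 0.09 (SE). Its log2 fold change stayed between -0.97 and -0.82 in 18 alternative fits. Tgfbi was 1 of 10 members past an adjusted p of 0.05 in edgeR, and nothing is read from that count, since it was chosen for this contrast. Of all 16364 genes tested, 0.862% were past that threshold in either direction and 0.299% were lower on hHVS. Tgfbi did not pass without hHVS replicate 1, nor with the replicate numbers as a block.

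Tgfb1, the ligand, showed no difference beyond its spread. It was at 441, 518 and 518 CPM in the hHVS libraries, against 524, 513 and 428 CPM in the PCL libraries. The groups overlapped fully, averaging 492 ± 44.4 CPM on hHVS and 489 ± 52.4 CPM on PCL (SD, n = 3 each). The log2 fold change was 0.01 ± 0.10 (SE). Its sign was negative in 7 of 18 alternative fits, library totals among them, with values from -0.11 to 0.08.

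The receptor genes leaned in opposite directions. Tgfbr1, the type I receptor kinase, was at 357, 307 and 326 CPM on hHVS, against 402, 351 and 420 CPM on PCL. The groups overlapped by a narrow margin, since hHVS replicate 1 exceeded PCL replicate 2. The log2 fold change was -0.24 ± 0.09 (SE). Tgfbr2, the type II receptor that binds the ligand, was at 249, 234 and 227 CPM on hHVS, against 196, 212 and 167 CPM on PCL. Every hHVS library was above every PCL library, with a log2 fold change of 0.30 ± 0.10 (SE). Both kept their sign in all 18 alternative fits. Per length, Tgfbr1 was 1.80, 1.65 and 1.80 times Tgfbr2 in the hHVS libraries and 2.57, 2.07 and 3.15 times Tgfbr2 in the PCL libraries (ratios of FPKM). This ratio, formed after the values were seen, averaged 1.75 ± 0.0889 on hHVS and 2.60 ± 0.537 on PCL (SD, n = 3 each). Its groups did not overlap, which restates the opposite leanings of both genes and adds nothing to them.

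Among the members, hHVS and PCL libraries were fully separated in Tgfbi (lower on hHVS) and Tgfbr2 (higher). That is 2 of 10, where 20.6% of all tested genes did not overlap (9.89% lower and 10.7% higher), and nothing is read from the count, since Tgfbi was chosen for its difference. Of the other 9 members, 1 (Tgfbr2) was separated.

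**Figure D1:**
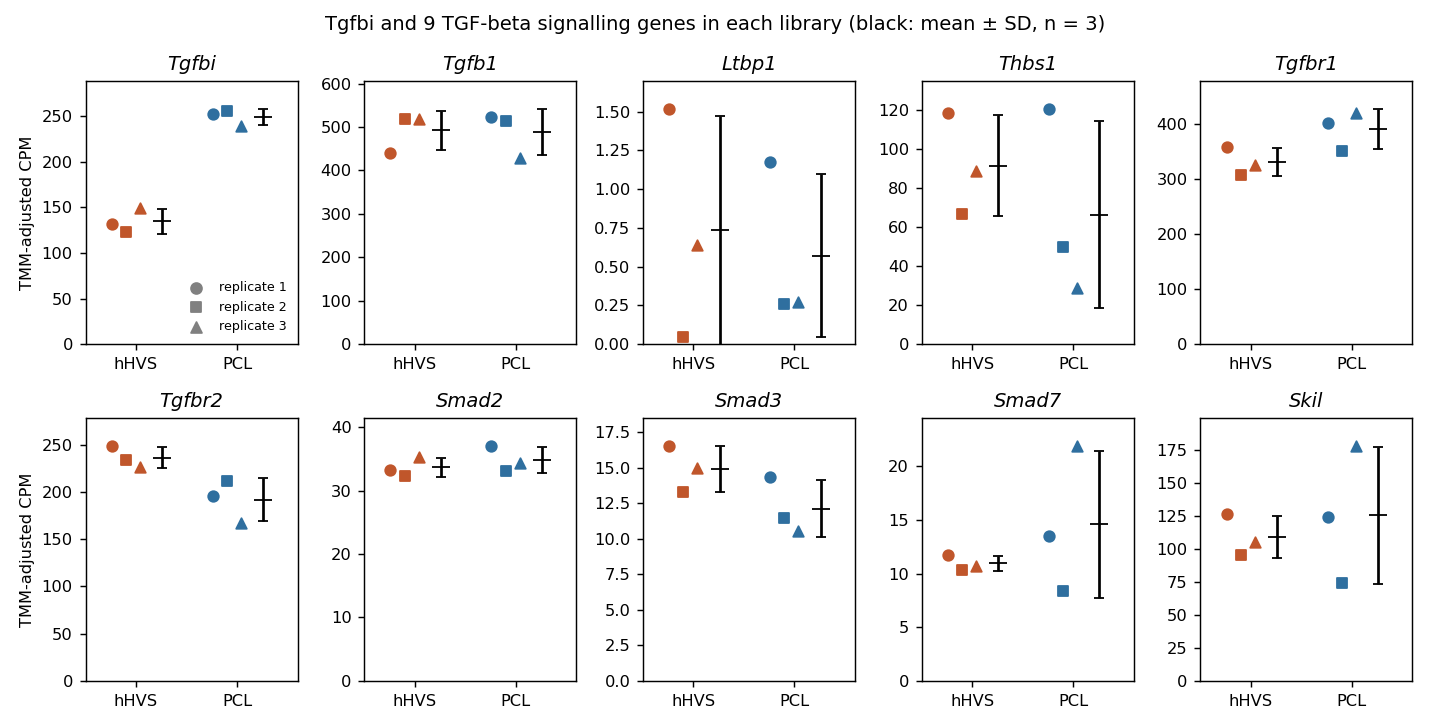
Level of each of the 10 genes in TMM-adjusted CPM (vertical axes from 0), with hHVS libraries in orange, PCL libraries in blue, a symbol for each replicate number and the mean ± SD (n = 3) in black. Tgfbi sits at 123 to 149 CPM on hHVS and 239 to 255 CPM on PCL, whereas 8 other genes overlap between the scaffolds and Tgfbr2 is separated in the opposite direction.

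Of the receptor-activated Smads, Smad2 differed little and Smad3 leaned higher on hHVS. Smad2 was at 33.3, 32.4 and 35.3 CPM on hHVS, against 37.1, 33.1 and 34.3 CPM on PCL, with overlapping groups and a log2 fold change of -0.05 ± 0.08 (SE). Smad3 was at 16.5, 13.3 and 15.0 CPM on hHVS, against 14.3, 11.5 and 10.5 CPM on PCL. Its groups overlapped as well, and its log2 fold change of 0.30 ± 0.15 (SE) kept its sign in 18 of 18 alternative fits.

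The feedback inhibitors varied among PCL libraries more than between scaffolds. Smad7, which blocks and degrades the type I receptor, was at 11.8, 10.4 and 10.7 CPM on hHVS, against 13.5, 8.35 and 21.9 CPM on PCL. Skil (SnoN), a corepressor that binds Smads, was at 127, 95.2 and 105 CPM on hHVS, against 124, 73.8 and 178 CPM on PCL. Both were lowest in PCL replicate 2 and highest in PCL replicate 3, with all hHVS libraries between. The coefficient of variation was 6.61% on hHVS and 46.9% on PCL for Smad7, and 14.7% on hHVS and 41.5% on PCL for Skil. The log2 fold changes, -0.41 ± 0.31 (SE) for Smad7 and -0.20 ± 0.29 (SE) for Skil, became 0.00 and 0.14 without PCL replicate 3, and -0.69 and -0.47 without PCL replicate 2.

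The latency and release genes varied widely on both scaffolds. Thbs1, thrombospondin 1, was at 119, 67.0 and 89.0 CPM on hHVS, against 121, 49.9 and 28.9 CPM on PCL. Its groups overlapped, and its log2 fold change of 0.46 ± 0.48 (SE) ranged from 0.10 to 1.22 with 1 library left out. A lincRNA on the opposite strand, Gm29233, shares 3.42% of the exon bases of Thbs1 and had at most 5 estimated counts in a library. Ltbp1 was near the detection limit, at 1.52, 0.0485 and 0.640 CPM on hHVS, against 1.18, 0.262 and 0.270 CPM on PCL. The hHVS replicate 2 value is 4 units, or about 1 fragment, and below the floor. The log2 fold change of 0.36 ± 1.04 (SE) changed sign with limma-voom, the replicate block and without hHVS replicate 1, and its libraries differed more within a scaffold than its means did between scaffolds.

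Set side by side per length, in deposited FPKM, the order of the members changed at one place near the top. On hHVS, Tgfb1 was highest at 86.3 ± 8.72 FPKM, and below it Tgfbr1 (44.6 ± 2.86) and Tgfbi (44.3 ± 4.37) overlapped. On PCL, Tgfbi (86.1 ± 1.85) overlapped with Tgfb1 (89.9 ± 8.67) and was above Tgfbr1 (55.6 ± 6.16) in every library. Tgfbr2 came next on both scaffolds, at 25.5 ± 1.02 FPKM on hHVS and 21.7 ± 2.19 FPKM on PCL, separated from its neighbours. Thbs1, Skil and Smad2 followed, with each neighbouring pair overlapping on both scaffolds. Smad3 and Smad7 overlapped too, at about 2 to 3 FPKM. Ltbp1 was last, at 0.0607 ± 0.0604 FPKM on hHVS and 0.050 ± 0.0466 FPKM on PCL (SD, n = 3 each).

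**Figure D2:**
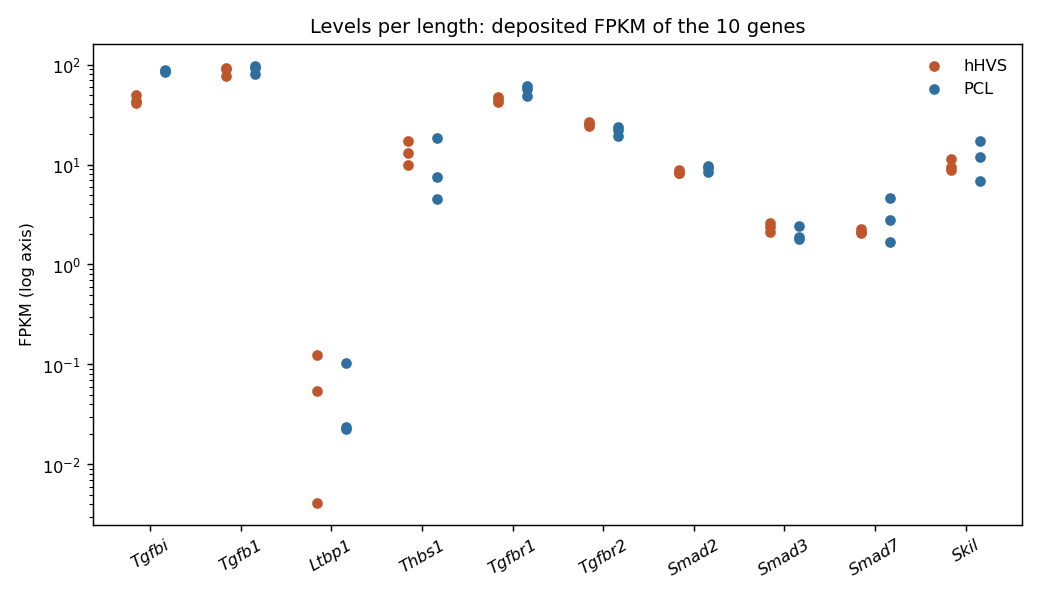
Deposited FPKM of the 10 genes on a logarithmic axis, 1 point per library, hHVS in orange to the left of PCL in blue. Tgfbi is level with Tgfbr1 on hHVS (44.3 and 44.6 FPKM) and level with Tgfb1 on PCL (86.1 and 89.9 FPKM).

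Whether other genes of the pathway went with Tgfbi was asked of 6 lists by role, 77 genes in all, of which 67 are not members. Of those 67, 62 passed the filter on low values. Of the 62, 0 rose and 0 fell in edgeR's quasi-likelihood test (adjusted p under 0.05 over all 16364 genes, of which 0.862% passed). At an unadjusted p under 0.05, 11 of the 62 passed (17.7%), against 13.1% of all genes. limma-voom called 0 of them, with 11 at an unadjusted p under 0.05. DESeq2 called 3: Mmp14 higher, and Pmepa1 and Dcn lower. Over the 26793 genes it fitted, DESeq2 called 375 higher and 281 lower, so its 3 are not read against the edgeR share. The median log2 fold change of the 62 was -0.15, against -0.01 for all genes, and 38 of them (61.3%) were negative, against 52.2% of all genes. Without PCL replicate 1 that median was 0.04, so its sign rested on this library.

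Ligand genes other than Tgfb1 were scarce. Inhba, which encodes the activin A subunit and was the most abundant of them, was at 5.25, 0.959 and 3.67 CPM on hHVS and 8.68, 3.62 and 2.68 CPM on PCL (log2 fold change -0.60 ± 0.64 SE, adjusted p = 0.738, edgeR). Of the 6 ligand genes tested besides Tgfb1, 0 passed in edgeR and 0 reached an unadjusted p under 0.05. Neither limma-voom nor DESeq2 called one. Bmp4, Bmp6, Bmp7, Mstn and the integrin gene Itgb6 had 0 counts in all 6 libraries, below a floor of 0.146 to 0.167 CPM in a library.

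Among latency and activation genes, Nrros, which tethers latent TGF-beta on myeloid cells, was the most abundant non-member by FPKM, though not by CPM. It was at 256, 255 and 265 CPM on hHVS and 252, 256 and 248 CPM on PCL, with overlapping groups (log2 fold change 0.04 ± 0.06 SE, adjusted p = 0.843, edgeR). Mmp14, a membrane metalloproteinase that can release latent TGF-beta, had the lowest unadjusted p of this list and is named for that after its values were seen. It was at 240, 194 and 269 CPM on hHVS and 127, 75.8 and 164 CPM on PCL, without overlap (log2 fold change 0.94 ± 0.26 SE, adjusted p = 0.189, edgeR). Lrrc32 (GARP), the tether of regulatory T cells and platelets, was lower without overlap at 2.90, 3.93 and 3.25 CPM on hHVS and 7.45, 21.0 and 4.65 CPM on PCL (adjusted p = 0.222, edgeR). Ltbp3 was higher without overlap, at 94.0, 83.6 and 82.9 CPM on hHVS and 67.4, 76.9 and 60.6 CPM on PCL (adjusted p = 0.225, edgeR). Of the 11 non-members tested in this list, 0 passed in edgeR. These 3 (27.3%) had an unadjusted p under 0.05, against 13.1% of all genes. The same share was without overlap, against 20.6% of all genes.

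Of the 10 other receptor genes, edgeR called 0, and 3 (30%) had an unadjusted p under 0.05, against 13.1% of all genes. The coreceptor gene Eng (endoglin), the most abundant by FPKM though not by CPM, was at 69.7, 85.7 and 85.3 CPM on hHVS and 82.7, 90.3 and 76.0 CPM on PCL (adjusted p = 0.881, edgeR). Of the 8 other Smads and cofactors, 0 passed, and 1 (12.5%) was under that unadjusted p. Ep300, the acetyltransferase that activates Smad-dependent transcription, was at 250, 227 and 254 CPM on hHVS and 240, 235 and 160 CPM on PCL (adjusted p = 0.622, edgeR). Neither limma-voom nor DESeq2 called a gene in these 2 lists.

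Of the 12 other inhibitors, 0 passed in edgeR, and 2 (16.7%) had an unadjusted p under 0.05, against 13.1% of all genes. Ski, the paralogue of Skil, was at 181, 188 and 192 CPM on hHVS and 204, 198 and 172 CPM on PCL (log2 fold change -0.03 ± 0.08 SE, adjusted p = 0.901, edgeR). Dcn and Pmepa1 were those with the lower p. Pmepa1 was at 0.764, 0.243 and 0.575 CPM on hHVS and 2.55, 1.42 and 0.992 CPM on PCL. Its log2 fold change was -1.65 ± 0.52 SE (adjusted p = 0.236, edgeR), and it passed in 1 of 18 alternatives. Dcn (decorin), a matrix proteoglycan that binds TGF-beta and also one of the stromal markers, was at 0.306, 0.667 and 0.562 CPM on hHVS and 2.35, 2.10 and 1.49 CPM on PCL (log2 fold change -1.95 ± 0.36 SE, adjusted p = 0.0739, edgeR). It passed with DESeq2 and on counts divided by 4, while over all 18 alternatives its adjusted p reached 0.238.

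Of the 15 targets other than Tgfbi, 13 (86.7%) had a negative log2 fold change, against 52.2% of all genes, with a median of -0.49. Without PCL replicate 1, 6 of the 15 were negative and the median was 0.11, and without hHVS replicate 2, 10 were negative with a median of -0.15. Of the 13, 10 turned positive in at least 1 of 18 alternative fits. Of the 15, 0 passed in edgeR, limma-voom or DESeq2, and 2 (13.3%) had an unadjusted p under 0.05 in edgeR, against 13.1% of all genes. Those 2 went opposite ways: Klf10, a TGF-beta-induced transcription factor gene, had a log2 fold change of -0.28 ± 0.11 SE (edgeR adjusted p = 0.359), whereas Cdkn1a, a cell cycle inhibitor gene, had 0.43 ± 0.14 SE (edgeR adjusted p = 0.247). Id2, the most abundant, was at 257, 209 and 213 CPM on hHVS and 199, 168 and 317 CPM on PCL (adjusted p = 0.991, edgeR).

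**Figure D3:**
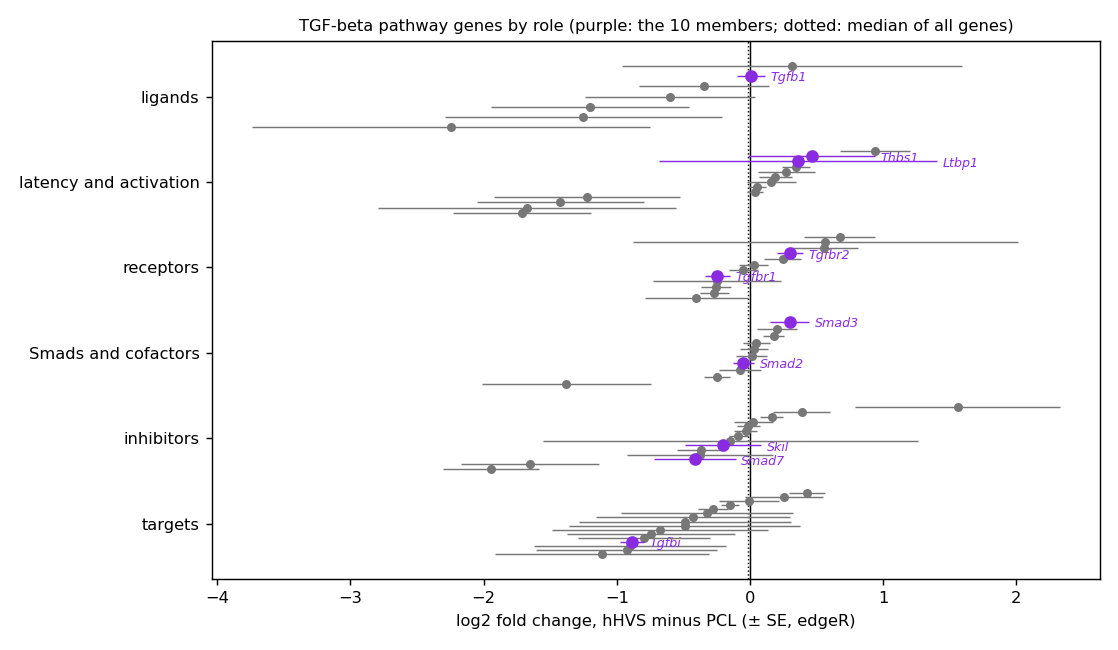
Log2 fold change (hHVS minus PCL, horizontal axis, bars ± SE from edgeR) of the 72 pathway genes tested, stacked by role, with the 10 members in purple and named and the median of all genes as a dotted line. Tgfbi (-0.89) has a narrow bar among targets whose bars are mostly wide, and the other members lie between -0.41 and 0.46.

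Many of the targets, and of the ligand genes, were extreme in the same libraries. Of the 72 pathway genes tested, 16 (22.2%) had their highest level in PCL replicate 1 and their lowest in hHVS replicate 2, against 3.39% of all genes tested. This description was made after the values were seen. Of these 16, 8 were targets, most of them matrix and contractile genes, among them Cyr61 (Ccn1), Ctgf (Ccn2), Fn1, Tagln, Acta2, Col1a1 and Postn. A further 4, of 7 ligand genes tested, were Tgfb2, Inhba, Inhbb and Gdf11. Of these, Tgfb2 is counted on a tie, since it was at 0 in hHVS replicates 2 and 3 alike. Gdf11 was at 0 in hHVS replicate 2 and reached only 0.549 CPM, in PCL replicate 1. Ctgf, connective tissue growth factor, was at 10.3, 1.36 and 3.38 CPM on hHVS and 14.9, 3.99 and 2.11 CPM on PCL. The sum of 8 stromal markers (Col1a1, Col1a2, Col3a1, Pdgfra, Pdgfrb, Lum, Dcn and Cxcl12) was highest and lowest in the same libraries. It was 50.6, 9.08 and 41.4 CPM on hHVS and 142, 38.4 and 38.3 CPM on PCL. Most of this sum was Col1a1 and Col1a2, and not all 8 markers followed it. Col3a1 and Lum were highest in PCL replicate 3, Pdgfra was highest in PCL replicate 2, and Dcn was lowest in hHVS replicate 1. Lum was at 0 in every hHVS library, and Col1a1 and Dcn belong to both kinds of list. The part of stromal cells in these values was not tested. Thbs1 and Ltbp1 did not share both extremes: Thbs1 was lowest in PCL replicate 3 and Ltbp1 highest in hHVS replicate 1. Within each scaffold, though, both were highest in replicate 1. Tgfbi was not, at 132 CPM in hHVS replicate 1 and 252 CPM in PCL replicate 1. Its lowest library was also hHVS replicate 2 (123 CPM), and its highest was PCL replicate 2 (255 CPM), close to PCL replicate 1.

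A second set followed PCL replicates 2 and 3. Smad7 and Skil were joined by Smad6, Tgif1, Id1, Id2 and Id3 in being highest in PCL replicate 3 and lowest in PCL replicate 2, which makes 7 of 72 pathway genes (9.72%), against 3.63% of all genes tested. The pattern was taken from Smad7 and Skil after their values were seen, and both are in the count, so the share is a description. Smad6 is an inhibitor of bone morphogenetic protein (BMP) signalling, Tgif1 is a corepressor, and the Id genes are classical BMP targets. Id1 was at 13.8, 11.9 and 11.3 CPM on hHVS and 15.0, 4.94 and 41.9 CPM on PCL. Id3 was at 58.7, 53.7 and 49.4 CPM on hHVS and 71.0, 34.8 and 175 CPM on PCL. The level in PCL replicate 3 was 8.48 times that in PCL replicate 2 for Id1, 6.16 times for Smad6 and 5.02 times for Id3, but 2.62 times for Smad7 and 2.41 times for Skil. PCL replicate 3 also stood apart in the principal component analysis, and its part in these values was not tested.

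**Figure D4:**
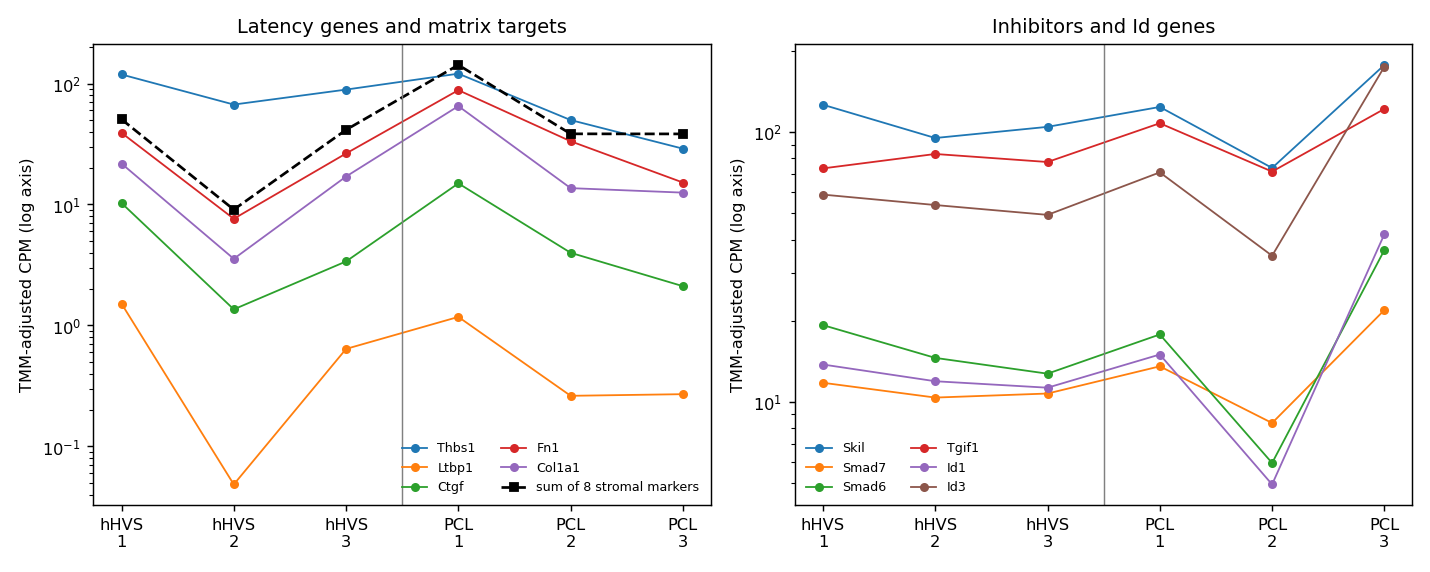
TMM-adjusted CPM (logarithmic axes) in each library, hHVS left of PCL, lines only joining points of 1 gene. Left: Thbs1, Ltbp1 and 3 targets (Ctgf, Fn1 and Col1a1) with the summed stromal markers (dashed), whose sum is lowest in hHVS replicate 2 (9.08 CPM) and highest in PCL replicate 1 (142 CPM). Right: Skil, Smad7, Smad6, Tgif1, Id1 and Id3, all highest in PCL replicate 3 and lowest in PCL replicate 2.

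Tgfbi is also a gene of monocytes, so monocyte markers were set beside it. Of 6 such markers, among them Ly6c2, Ccr2, Vcan, F13a1 and Fn1, 0 passed in edgeR, and 2 (Ccr2 and F13a1) had an unadjusted p under 0.05, which 13.1% of all genes had. Ccr2, the chemokine receptor of classical monocytes, was at 1.52, 3.05 and 3.11 CPM on hHVS and 4.79, 7.09 and 4.68 CPM on PCL (adjusted p = 0.191, edgeR). F13a1 went the other way, at 3.07, 1.63 and 0.980 CPM on hHVS and 0.445, 0.414 and 0.438 CPM on PCL (adjusted p = 0.0948, edgeR). The summed level of the 6 was 13.5 to 45.5 CPM on hHVS and 21.5 to 96.1 CPM on PCL, most of it Fn1, and the part of monocytes in the Tgfbi difference was not tested. Markers of endothelial cells summed to 7.11 to 7.62 CPM on hHVS and 8.96 to 12.1 CPM on PCL, most of it Kdr. Neutrophil markers summed to 14.04 to 15.4 CPM on hHVS and 12.8 to 14.7 CPM on PCL. Megakaryocyte and platelet markers summed to 54.7 to 73.1 CPM on hHVS and 32.3 to 52.3 CPM on PCL, nearly all from Pf4, which macrophages also express. Those of T and NK cells stayed at or below 8.11 CPM in any library, most of it Cd4, while Cd3e and Cd3g were at 0 in every hHVS library. Those of B cells, erythroid cells and dendritic cells stayed at or below 1.85, 0.549 and 0.721 CPM.

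Of the other FAS1 domain genes, 2 had higher levels in every hHVS library and 1 overlapped, and 0 of the 3 passed in edgeR (2 at an unadjusted p under 0.05). Over all genes, 10.7% were higher without overlap and 13.1% had such a p. Stab1 (stabilin 1), a scavenger receptor of macrophages, was at 1756, 2125 and 2061 CPM on hHVS and 1268, 1305 and 969.5 CPM on PCL, higher in every hHVS library (log2 fold change 0.75 ± 0.13 SE, adjusted p = 0.059, edgeR). It missed the threshold, and passed in 4 of 18 alternatives, none of them with 1 library left out. Stab2, its paralogue, was at 7.85, 15.7 and 10.0 CPM on hHVS and 4.80, 6.06 and 3.17 CPM on PCL (log2 fold change 1.26 ± 0.32 SE, adjusted p = 0.155, edgeR). Postn (periostin), the closest relative of Tgfbi, was at 31.2, 7.58 and 15.6 CPM on hHVS and 42.0, 8.74 and 17.2 CPM on PCL (adjusted p = 0.864, edgeR).

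Of integrin subunit genes whose products bind the Tgfbi protein, Itgb5 was lower without overlap, at 486, 456 and 436 CPM on hHVS and 519, 510 and 554 CPM on PCL (log2 fold change -0.20 ± 0.07 SE, adjusted p = 0.292, edgeR). Itgav, Itgb1 and Itgb3 overlapped between scaffolds (adjusted p = 0.761, 0.872 and 0.795, edgeR), with log2 fold changes of 0.16, -0.03 and 0.19. Itga3 was too low to be tested, at 0 on hHVS and at most 0.222 CPM on PCL.

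The 5 genes with patterns nearest to that of Tgfbi were not in the pathway lists. Those lists hold 77 genes, few of those compared, so nothing about the pathway is read from this. Likeness was measured as the root mean square difference of centred log2 CPM over the 6 libraries, among 8539 genes (unnamed gene models left out) that averaged 10 CPM or more on either scaffold, and members were ranked against those. The nearest 5 were Rchy1 (0.08), Tle1 (0.12), Cytip (0.12), Cnppd1 (0.14) and Adgrg6 (0.14). Rchy1 encodes an E3 ubiquitin ligase, Tle1 a Groucho corepressor, Cytip a leukocyte regulator of cytohesin and Adgrg6 an adhesion G protein-coupled receptor. Rchy1 was at 14.4, 14.5 and 15.3 CPM on hHVS and 28.5, 29.7 and 28.7 CPM on PCL. Cytip was at 26.9, 26.6 and 27.7 CPM on hHVS and 57.4, 60.0 and 45.8 CPM on PCL. Of the members, Tgfbr1 was nearest at 0.35, which ranked 532 by that order, and Smad2 next at 0.43, which ranked 2440. Tgfb1, with a log2 fold change of 0.01, was at 0.47 and ranked 4196. Smad2 was thus only slightly nearer than a gene with almost no group difference. Smad7 ranked 6263, and Skil, Tgfbr2, Smad3, Thbs1 and Ltbp1 were farther still (7123 to 8525). The measure is not scaled, so a wide spread among libraries also places a gene farther off. These values are a description, as the pattern is that for which Tgfbi was chosen.

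**Figure D5:**
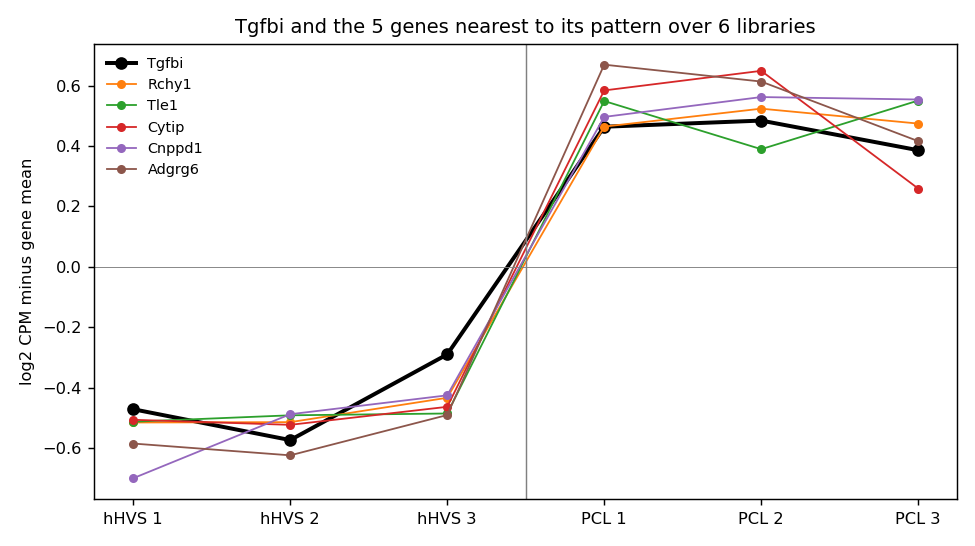
Log2 CPM minus each gene's mean (vertical axis) in the 6 libraries, hHVS left of PCL, for Tgfbi (thick black) and the 5 genes nearest to its pattern. All 6 are below their mean in every hHVS library and above it in every PCL library, at root mean square differences of 0.08 to 0.14 from Tgfbi.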

How the data were processed

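RNA of BMMNCs on scaffolds was sequenced as 6 libraries after poly(A) selection with a stranded kit, per the labels' protocols. Per gene, the authors deposited values labelled as raw counts and, separately, FPKM. The submitters' processing notes name FastQC, MultiQC, STAR and featureCounts, with the mm10 build. The sources used here give no versions, no role for each tool and no strand setting of the counting. Raw read counts had been assumed, but 4 and 8 are more frequent than their neighbours among the deposited whole numbers (6544 table entries are 4, against 2701 of 3 and 1483 of 5, and 3210 are 8, against 1302 of 7 and 857 of 9), although 1 is the most frequent (6904), so they were treated as estimated counts of about 4 units per fragment and used as deposited.

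hHVS was compared with PCL over all genes by edgeR 4.0.16 in R 4.3.3 (filterByExpr with minimum count 10, TMM factors, quasi-likelihood F test, group as the only term, Benjamini-Hochberg adjustment, threshold 0.05). The SE of a log2 fold change is its size divided by the square root of F. Alternatives used DESeq2 1.42.0, limma 3.58.1 (voom, and log2 of FPKM plus 0.1 or 1), other scalings, filters and left-out libraries. Coordinates came from GENCODE M21 (GRCm38, the assembly of mm10) and promoter windows from RefSeq on GRCm38.p6. The members, gene lists and tests were chosen with earlier results of these data known. Named genes were the members, the non-members of each pathway list past the threshold or else the most abundant by FPKM, the related lists, and the 5 patterns nearest to Tgfbi. Others are named because of their values. Some listed genes enter counts and sums but are not reported here by name.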

Additional observations from a re-analysis of the deposited data

How the results depend on the processing

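The log2 fold changes of the 10 members kept within 1 SD of the replicate spread in the alternatives run, except that of Smad2 with library totals (-0.13, against -0.05 with TMM factors). Pathway genes past the threshold numbered 0 higher and 1 lower (Tgfbi). They numbered 1 higher and 3 lower with DESeq2, 2 lower on counts divided by 4, and 0 lower with the replicate block. With 1 library left out, 0 to 1 were lower (0 without hHVS replicate 1). Over all genes, 92 were higher and 49 lower with TMM factors, and 71 higher and 74 lower with library totals. The counts were 54 higher and 22 lower without a filter and 375 higher and 281 lower with DESeq2. On log2(FPKM + 0.1) 41 were higher, and on log2(FPKM + 1) 47 were higher. The replicate block gave 26 higher and 10 lower. Leaving out 1 library gave 20 to 94 higher and 10 to 60 lower. Leaving out hHVS replicate 2 and PCL replicate 3 together, chosen after seeing the data, gave 47 higher and 19 lower, and fewer libraries entered that fit. For the other settings the cause was not tested. The replicate numbers were not taken as pairs: deviations of same-numbered libraries from their group means correlated across genes at 0.12, -0.01 and -0.06 (numbers 1, 2 and 3), so not every pair was over 0.1, and hHVS replicate 2 correlated best with PCL replicate 3 (0.15). Ltbp1 had no value where at least 1 CPM in 3 libraries was asked for. Depth limits Itga3 and the genes at 0, whose values lie near or below the floor.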
